A study of Mus musculus with 3 samples.

Results

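Tet2 CLIP peaks were examined in 10 genes for the granule contents and effector molecules of mast cells: Cpa3, Tpsb2, Hdc, Slc18a2, Srgn, Cd63, Tph1, Alox5, Il1rl1 and Fcer1a. Every peak whose midpoint lay in the mm10 span of one of these genes was taken, which gave 46 of the 8196 peaks in the deposited lists. They came from 3 biological replicate libraries of 1 group, with 16, 15 and 15 of the member peaks in replicates 1, 2 and 3. The cells were C57BL/6 mast cells grown from femoral bone marrow for 4 to 6 weeks with interleukin-3 at 10 ng/ml and stem cell factor at 5 ng/ml. More than 97.5% of them carried the IgE receptor FcεRI and Kit on their surface. They received ultraviolet light in 2 steps, at 400 and then 200 mJ per cm2. Tet2, an enzyme that oxidises 5-methylcytosine, was then captured from the lysate on beads that carried an antibody to it. No control-antibody or input library and no RNA levels were analysed here, so binding cannot be told apart from the abundance of each RNA. The design text calls the replicates biological, but which animal or culture each came from was not stated, so part of the spread between libraries may be technical.

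Mast cells store histamine, serotonin and proteases in secretory granules, where the negatively charged chains of a proteoglycan hold them. When antigen cross-links IgE on FcεRI, the granules fuse with the plasma membrane within a short time, and the cell also makes leukotrienes and prostaglandins from membrane lipid. CLIP cross-links a protein to the RNA it touches, and a peak is a stretch of genome where the recovered RNA fragments pile up.

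Peak heights were deposited as shares of a library. Each height is a whole number of equal steps, which serve as height units here, and the libraries hold 19213, 18270 and 15431 units in replicates 1, 2 and 3. How many reads make up a unit is unknown. The lowest listed heights were 2, 2 and 3 units, so a gene without a peak may still have had signal below that level. The median peak of a library stood at 4 units in all 3 libraries.

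Tet2 peaks were found in 9 of the 10 genes in at least 1 library, and in 7 of the 10 in every library. The same held for 14.1% and 3.16% of all 21900 protein-coding genes. Without peaks in more than 1 gene span, 5 members had a peak in all 3 libraries. With only peaks of at least 5 units it was 1 member, Slc18a2. The share of all protein-coding genes with a peak in all 3 libraries was not worked out for either setting. The members were chosen with earlier results of these data known, so these counts are a description and were not tested. Slc18a2, Cd63, Il1rl1, Hdc, Alox5, Tpsb2 and Cpa3 held a peak in each library, Tph1 and Srgn held 1 peak in 1 library, and Fcer1a held none. Together the member spans took 0.370%, 0.394% and 0.428% of the summed height in replicates 1, 2 and 3, or 0.397% ± 0.0292 (SD, n = 3). Most member peaks were low: 14 of 46 (30.4%) reached 5 units, against 35.0% of the peaks in all protein-coding spans. That share is near the background. By gene, 6 of the 10 members had a peak of at least 5 units, against 5.65% of protein-coding genes.

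**Figure D1:**
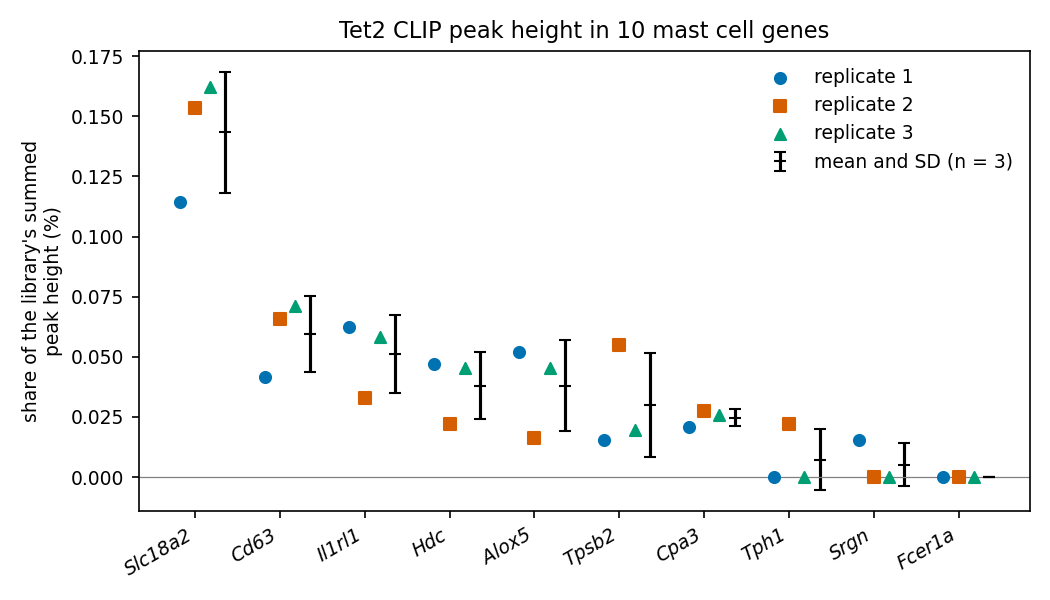
Summed peak height of each gene as a percentage of its library's summed height (y axis), for the 10 genes on the x axis, with 1 symbol per replicate and the mean with SD (n = 3) in black. Slc18a2 lies at 0.115% to 0.162% in the 3 libraries, above every value of the other genes, whose ranges overlap from one gene to the next.

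Histamine and serotonin are made by decarboxylase and hydroxylase enzymes and then pumped into granules. Slc18a2, the vesicular monoamine transporter that does the pumping (chromosome 19, 59260878 to 59296012), carried more Tet2 signal than any other member. It held 4, 4 and 5 peaks in replicates 1, 2 and 3, and their heights summed to 22, 28 and 25 units. That was 0.115%, 0.153% and 0.162% of the libraries, a mean of 0.143% ± 0.0253 (SD, n = 3). Its lowest library stood above the highest library of Cd63, the next gene in order, at 0.0713%. Among the 3086 protein-coding genes with a peak, Slc18a2 ranked at position 54 by this mean share. It held 13 of the 46 member peaks (28.3%) and 35.9% ± 4.30 (SD, n = 3) of the summed member height.

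The peaks of Slc18a2 gathered near the start of the gene. Its tallest locus, at 59263085 to 59263136 and about 2234 nt after the listed transcription start, reached 11, 13 and 9 units. The peaks of the 3 libraries had 31 nt in common there. These were the tallest member peaks of each library. A pair of smaller loci lay closer to the start. At 59260988 to 59261018, about 130 nt after the start, replicates 1 and 3 had peaks of 4 units each and replicate 2 had none. At 59261321 to 59261331, about 448 nt after the start, replicates 1 and 2 had peaks with the same start and end, at 3 and 5 units. Replicate 3 had its peak of 6 units a few bases further on, at 59261336 to 59261365, which touched neither. All 3 libraries therefore placed a peak in this stretch, although it did not count as a shared locus when an overlap of at least 1 nt was asked for. Further into the gene, replicates 2 and 3 had a locus at 59286218 to 59286260 with 7 and 3 units. Single peaks of 3, 4 and 3 units lay about 4106, 6640 and 20041 nt after the start, each in 1 library.

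**Figure D2:**
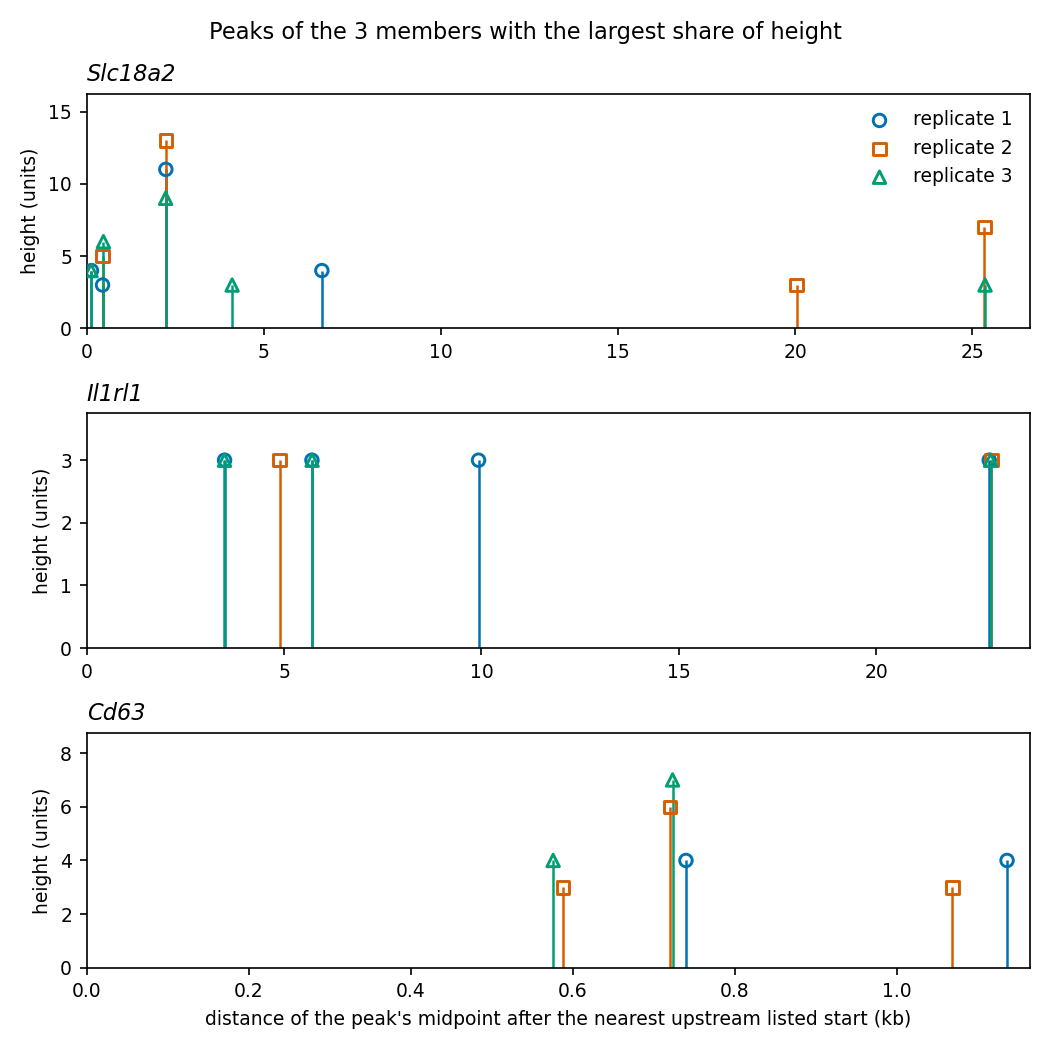
Height of each peak in units (y axis) against the distance of its midpoint after the nearest upstream start listed by RefSeq, in kb (x axis), for Slc18a2, Il1rl1 and Cd63, with a colour and symbol per replicate. In Slc18a2 the peaks of 11, 13 and 9 units coincide at about 2.2 kb, in Il1rl1 every peak stands at 3 units, and in Cd63 all 7 peaks lie within 1137 nt of the start.

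Hdc, histidine decarboxylase, the enzyme that makes histamine (chromosome 2, 126593659 to 126624025), held 1 peak in each library at the opposite end of the gene. The heights were 9, 4 and 7 units in replicates 1, 2 and 3, or 6.67 ± 2.52 units (SD, n = 3). All 3 peaks lay between 126594286 and 126594444, on average 715 nt from the downstream end of the span, and no other part of the gene held a peak. The peaks of replicates 2 and 3 covered nearly the same bases, 126594286 to 126594405 and 126594289 to 126594411. The peak of replicate 1, at 126594407 to 126594444, overlapped the latter by a few bases and did not reach the former, so these peaks form 1 locus only through replicate 3. Tph1, tryptophan hydroxylase, the first enzyme of serotonin synthesis (chromosome 7, 46644641 to 46672537), held 1 peak of 4 units in replicate 2, about 2590 nt from its downstream end. Replicates 1 and 3 listed no peak in Tph1.

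The granule proteases cleave proteins at the site of release. Cpa3, mast cell carboxypeptidase A (chromosome 3, 20215616 to 20242209), held 1 locus at 20224535 to 20224576 with peaks of 4, 5 and 4 units (4.33 ± 0.577, SD, n = 3). The peaks of the 3 libraries had 6 nt in common. Every Cpa3 peak also lay in the long non-coding gene Gm31320 and in the pseudogene Gm7428, both inside the Cpa3 span, so it cannot be credited to Cpa3 alone. Tpsb2, a mast cell tryptase (chromosome 17, 25366308 to 25368096), has the shortest span of the members at 1789 nt and held 1, 2 and 1 peaks. Its shared locus at 25367215 to 25367297 carried 3, 7 and 3 units, and the peaks of all 3 libraries ended at the same base and had 59 nt in common. Replicate 2 alone had another peak of 3 units at 25367445 to 25367462. Per length, Tpsb2 was first among the members, with 29.8 summed units per 10 kb of span on average, followed by Slc18a2 at 7.12 and Cd63 at 6.23. Without replicate 2 the value of Tpsb2 was 16.8, which was still the highest by span. The Cd63 value divides by a span of 16592 nt, but from its listed start the gene measures 3478 nt. All Cd63 peaks lie in that shorter stretch, so its value per length depends on how the span is drawn. The order was not worked out from listed starts. Tryptase genes resemble each other closely, and the placement of reads between such copies is unknown. Tpsab1, a nearby tryptase gene, held no peak and is annotated as a transcribed pseudogene in the C57BL/6J reference.

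Srgn, serglycin, the core protein of the granule proteoglycan (chromosome 10, 62493833 to 62527445), held a single peak of 3 units in replicate 1. It lay 1166 nt from the downstream end, and replicates 2 and 3 had no peak. Cd63, a tetraspanin of the granule membrane that appears on the cell surface after degranulation (chromosome 10, 128896231 to 128912822), was second among the members by share of height. It held 2, 3 and 2 peaks, which summed to 8, 12 and 11 units, or 0.0595% ± 0.0158 of a library (SD, n = 3). Its shared locus at 128910030 to 128910101 reached 4, 6 and 7 units, with 26 nt in common. A locus at 128909905 to 128909958 had no peak in replicate 1 and 3 and 4 units in replicates 2 and 3. Peaks of 3 units in replicate 2 and 4 units in replicate 1 lay further on, at 128910395 to 128910433 and 128910446 to 128910517. All 7 peaks thus fell in one short stretch of the gene.

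Alox5, arachidonate 5-lipoxygenase, which begins leukotriene synthesis (chromosome 6, 116410071 to 116461178), held 2, 1 and 2 peaks. Its shared locus at 116415829 to 116415933 carried 5, 3 and 4 units, with 52 nt in common. Single peaks of 5 units in replicate 1 and 3 units in replicate 3 lay at 116412243 to 116412279 and at 116417517 to 116417620. Alox5 is on the minus strand and the long non-coding gene Gm38880 on the plus strand overlaps 4 of the 5 peaks. The deposited lists give no strand, so reads from this pair cannot be told apart. The peak of 5 units at 116412243 lay in Alox5 alone.

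Among the receptors, Il1rl1, the interleukin-33 receptor chain also called ST2 (chromosome 1, 40404864 to 40465418), held 4, 2 and 3 peaks. Each of these 9 peaks stood at 3 units, the lowest height that replicate 3 lists. They summed to 12, 6 and 9 units, or 0.0512% ± 0.0160 of a library (SD, n = 3), which put Il1rl1 behind Slc18a2 and Cd63 through the number of its peaks and not their height. No Il1rl1 locus overlapped in all 3 libraries. Replicates 1 and 3 shared loci at 40443102 to 40443138 and at 40445316 to 40445363, and replicate 2 had none at either place. Near the downstream end, replicates 2 and 3 shared a locus at 40462521 to 40462570, and the peak of replicate 1 ended just short of it, at 40462517. With peaks within 100 nt joined, these 3 peaks became a site of all 3 libraries. Fcer1a, the IgE-binding alpha chain of FcεRI (chromosome 1, 173221269 to 173227232), listed 0 peaks in each of the 3 libraries although the cells carried FcεRI on their surface. Its span of 5964 nt is short, and 6.44% of protein-coding genes with a span of at most 6000 nt held a peak, against 16.8% of longer ones. Tpsb2, at 1789 nt, is shorter still and held a peak in each library. Whether span length bears on the lack of a peak in Fcer1a was not tested.

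By share of height the members stood in the order Slc18a2, Cd63, Il1rl1, Hdc, Alox5, Tpsb2, Cpa3, Tph1, Srgn and Fcer1a. Only the step from Slc18a2 to Cd63 was free of overlap between libraries, and each later pair of neighbours overlapped. Hdc and Alox5 differed by far less than their spread, at 0.0380% ± 0.0140 and 0.0379% ± 0.0189 (SD, n = 3). Tpsb2 stood at 0.0156%, 0.0547% and 0.0194%, with replicate 2 high. Alox5 stood at 0.0520%, 0.0164% and 0.0454%, with replicate 2 low. The 3 protein-coding genes closest to Slc18a2 in tallest height over the 3 libraries were Golga7 (10, 12 and 9 units), Rusc2 (9, 13 and 9 units) and Ip6k1 (10, 13 and 8 units). Their summed absolute differences from Slc18a2 were 0.23, 0.26 and 0.28 in log2(units + 1). Each of the 3 held 1 peak per library, where Slc18a2 held 4 or 5.

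The 46 peaks formed 27 loci when an overlap of at least 1 nt was taken as shared. Of these, 6 (22.2%) held a peak of all 3 libraries, 7 of 2 libraries and 14 of 1. In all protein-coding spans, 10.6% of loci held a peak of all 3. The 6 shared loci lay 1 each in Slc18a2, Cd63, Hdc, Alox5, Tpsb2 and Cpa3, so 6 of the 10 genes had one, against 2.11% of protein-coding genes. No test was made of these differences. The loci of Cpa3 and Alox5 lie in more than 1 gene span, which leaves 4 shared loci in Slc18a2, Cd63, Hdc and Tpsb2 alone. With only peaks of at least 5 units, 1 shared locus was left, the tallest one of Slc18a2. The share of shared loci over all protein-coding spans was not worked out for either setting.

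Peaks of Hdc, Alox5, Tph1, Srgn and Cpa3 lay in the downstream part of the gene, most peaks of Slc18a2 lay near the start, and the position in Cd63 and Il1rl1 depended on where the gene was taken to begin. RefSeq start sites gave the strand of 9 members, Tpsb2 being the one without. In the 8 of these with peaks, all of span 10000 nt or more, 32 of 42 peaks lay beyond 50% of the span, and without Slc18a2 it was 29 of 29. In all protein-coding spans of that length, 44.2% of peaks lay there. The 29 include the 3 Cpa3 peaks and 4 of the 5 Alox5 peaks, which also lie in other gene spans. They also include 1 peak each of Tph1 and Srgn, each in 1 library. Positions were not worked out without peaks in more than 1 span. The last 10% of the span held 9 of the 42 member peaks (21.4%), against 14.3% of all such peaks. These 9 were in Hdc (3, at 1 locus), Il1rl1 (3, at 1 site when peaks within 100 nt are joined), Alox5, Tph1 and Srgn (1 each). A site found in several libraries counts once per library, here and in the background. Such sites weigh more among the members, where 22.2% of loci were in all 3 libraries against 10.6%. The first 10% held 8 of the 42 (19.0%), against 34.9% of all such peaks, and all 8 were in Slc18a2. Part of this rests on how RefSeq draws the spans. The span of Cd63 opens far upstream of its listed start at 128909345, and from that start the gene measures 3478 nt and its peaks lie between 16.6% and 32.7% of the way. Measured from the most upstream listed start, with genes of at least 10000 nt from there, 20 of 35 member peaks (57.1%) lay beyond 50%, against 41.9% of all peaks measured the same way. Outside Slc18a2 it was 17 of 22 (77.3%). Il1rl1 accounts for the change besides Cd63, since its peaks then run from 37.8% to 92.0%. No member peak overlapped a listed start window of 250 nt before to 50 nt after a start. Tpsb2 has no listed start, so its peaks could not be set against a window of its own. Exons, introns, UTRs and the bases under the peaks were not analysed here.

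**Figure D3:**
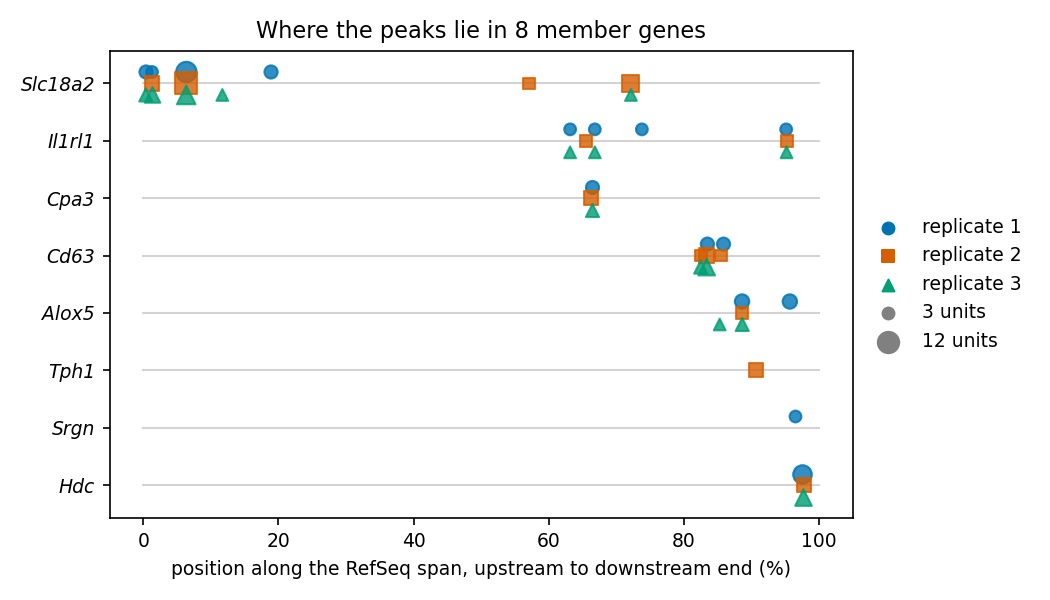
Position of each peak's midpoint along the RefSeq span, from the upstream end at 0% to the downstream end at 100% (x axis), for the 8 members with peaks and a known strand (y axis), with a colour and symbol per replicate and symbol area growing with height in units. The first 10% of the span holds 8 peaks, all of Slc18a2, and the 29 peaks of the other 7 genes lie beyond 50%.

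Other genes of the same pathways were followed in 7 lists of 101 genes, which include the 10 members. Of the 91 genes that are not members, 26 (28.6%) held a peak in at least 1 library and 6 in all 3, against the 14.1% and 3.16% of all protein-coding genes given above. These lists were also drawn up with earlier results known, and no test was made. The synthesis of the granule proteoglycan stood highest by share of genes, with 7 of 12, but 3 of the 12 had a peak in all 3 libraries. Ndst2, the sulphotransferase needed for mast cell heparin (chromosome 14, 20723730 to 20734570), held a shared locus at 20734431 to 20734500 of 14, 10 and 15 units, about 1.0% of the way into its span. Its share of height was 0.126% ± 0.0400 (SD, n = 3), against 0.00520% for Srgn, whose protein carries the chains. Chst15, a chondroitin sulphate sulphotransferase, reached 3, 5 and 6 units with a shared locus, Hs6st1, a heparan sulphate sulphotransferase, reached 3, 3 and 4, and Chst11, another chondroitin sulphotransferase, reached 5, 3 and 0.

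Granule membrane and exocytosis genes had 11 of 22 with a peak, but 2 in all 3 libraries, Cd63 among them. Unc13d, the Munc13-4 protein that primes granules for fusion, was uneven, with 4, 0 and 1 peaks and a tallest height of 11, 0 and 4 units. The syntaxin Stx11 held 1 peak of 5 units in replicate 2. Vamp8, Snap23, Stx3 and Rab3d of the same list held no peak.

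Of the lysosomal hydrolases, 2 of 14 held a peak (14.3%), which is the background rate. Hexa had 0, 3 and 3 units in peaks near its downstream end that did not overlap.

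Genes of eicosanoid synthesis had 3 of 12 with a peak. Besides Alox5 these were Tbxas1, thromboxane A synthase (4, 0 and 5 units), and Ptgs1, a cyclooxygenase (4, 0 and 0 units), while Alox5ap, Ltc4s, Hpgds and Ptgs2 held none. Amine genes outside the members (Ddc, Slc6a4, Slc22a3, Maoa, Maob and Hnmt) held no peak. Of 13 proteases, the third with a peak after Tpsb2 and Cpa3 was Gzmb, granzyme B, with 3, 0 and 5 units, and the mast cell chymases Cma1 and Mcpt4 held none. Surface receptors had 6 of 19 with a peak. Il4ra, the interleukin-4 receptor alpha chain, led them with 4, 7 and 2 peaks, a tallest height of 7, 10 and 6 units, and 2 shared loci. Ptger3, a prostaglandin E2 receptor, had 0, 5 and 4 units, and Cd200r3 and Fcgr3 had 1 peak of 4 units each. At least 1 peak of Chst15, Chst11 and Tbxas1 also lay in another gene span. The only peak of Fcgr3 also lay in the span of the transfer RNA gene n-TDgtc3, so it cannot be credited to Fcgr3 alone. As with Fcer1a, the other chains of FcεRI, Ms4a2 and Fcer1g, held no peak in any library.

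**Figure D4:**
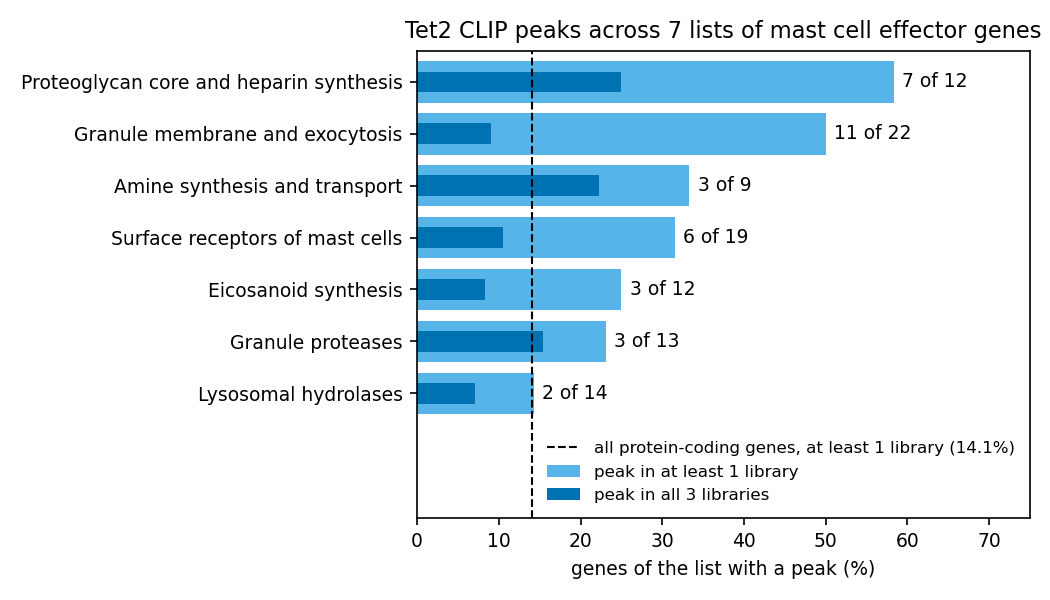
Percentage of the genes of each list that held a peak in at least 1 library (light bars, with counts) and in all 3 libraries (dark bars), with the share of all protein-coding genes with a peak in at least 1 library as a dashed line at 14.1%. The light bars run from 2 of 14 lysosomal hydrolases, at the line, to 7 of 12 proteoglycan genes.

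The mast cell label was set against marker genes. Of 10 mast cell markers 7 held a peak, and Cma1, Fcer1a and Ms4a2 held none. The tallest peaks were those of the transcription factor Gata2 (18, 11 and 15 units) and the receptor Kit (12, 5 and 7 units). At least 1 Gata2 peak also lay in the span of another gene, Gm38708. Kit was uneven, with 8, 1 and 1 peaks in replicates 1, 2 and 3 and no locus of all 3 libraries. Of these markers 5 are also members described above, and 4 of those hold a peak. Among the other 5, Kit, Gata2 and Mitf held a peak, Mitf with 1 of 3 units in replicate 3. A peak was found in 1 of 4 basophil, 2 of 8 macrophage, 0 of 8 neutrophil, 0 of 8 lymphocyte and 1 of 8 erythroid or megakaryocytic markers. The background rate for protein-coding genes, counted the same way, is 14.1%. The basophil and macrophage lists, at 25% each, lay above that rate. The erythroid or megakaryocytic list, at 12.5%, lay near it. Lists of 4 or 8 genes are too short to set such counts apart from the background, and the cell label was not tested. The markers of other cell types with a peak were Cd200r3 in replicate 3, Mertk and Adgre1 in replicate 2, and Itga2b in all 3 libraries. Itga2b held 3, 4 and 3 peaks of at most 4 units, with 1 locus of all 3 libraries. Its mean share of height was 0.0662% ± 0.00977 (SD, n = 3). Among the mast cell markers with a peak, Gata2 and Kit had larger mean shares. Il1rl1, Hdc, Tpsb2, Cpa3 and Mitf had smaller ones. Peaks are no measure of expression, so a marker without a peak may still be expressed.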

How the data were processed

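The authors deposited, for each of 3 libraries, the position and normalized height of every peak, a signal that sums to 1 per library. Per the submitters' processing notes, cutadapt 1.9, STAR 2.4.0i and build mm10 were used, and per the labels' protocols peaks were called per library by a valley-seeking method, with settings not given in the sources used here. Column headings gave the replicate numbers. Heights came out as whole numbers of steps for 100% of peaks (tolerance 0.05). Sequencing depth is unknown and no count model was used. At most 5.89% of a library's peaks had the same start and end in another, so the libraries were kept as 3 replicates. Starts were read as 0-based and are printed 1-based. Spans, strands and starts came from RefSeq tables of GRCm38.p6 (the same coordinates as mm10), and all 10 members and 101 listed genes matched by symbol. A peak was assigned to each span that held its midpoint. Python 3.11.15 and pandas 2.3.3 were used, and assignment and locus building were tested on simulated data.

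Members and lists were chosen with earlier results of these data known, and no test was made. Named genes were the members, up to 4 genes per list by tallest peak, and the 3 genes most like the leading member. Values of 2 listed genes are not reported here. Other genes named without a peak were chosen after their values were seen. Alternatives were any overlap with the span, wider spans, single-span peaks, taller peaks, other rules for sharing, and leaving out each replicate.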

Additional observations from a re-analysis of the deposited data

How the results depend on the processing

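Of 50 values under alternative settings, 40 stayed within 1.5 times the reported count or 1 SD of the reported mean. The tallest member peak could not move when only peaks of at least 5 units were kept. Members with a peak (9, and 6 at 5 units or more) stood at the 1.5-fold limit. So did shared member loci (6, and 4 without peaks in more than 1 span). With peaks of at least 5 units, member peaks per library fell to 4.67 and their share of height to 0.193%. Members with a peak in all 3 libraries fell to 1 and shared member loci to 1. Listed genes with a peak fell from 35 to 17, and the share of all protein-coding genes with one from 14.1% to 5.65%. Member peaks per library were 16.3 with spans widened by 1000 nt and 13.0 without peaks in more than 1 span, where the share of height was 0.343%. The mean share of member peaks beyond 50% of the span, 76.5% ± 7.13 (SD, n = 3), was 57.9% from the most upstream listed start and 100% without Slc18a2, both chosen after seeing the data. Leaving out each replicate gave 8 to 9 members with a peak, 15.0 to 15.5 peaks per library, 0.382% to 0.411% of height, a mean tallest peak of 10.0 to 12.0 units, 28 to 31 listed genes and 72.4% to 79.0% beyond 50% of the span. Counts that need all 3 libraries were not run without a replicate. Shared member loci numbered 5 when the overlap had to cover 50% of the shorter peak and 8 when peaks within 100 nt were joined. No paired analysis was possible because there is 1 group.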

Other observations

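The gene next to Il1rl1, Il18r1, which encodes a chain of the interleukin-18 receptor, held peaks just beyond the end of the Il1rl1 span. Replicates 2 and 3 each had a peak at chromosome 1, 40465662 to 40465685, with 3 and 5 units, about 256 nt past that end and inside the Il18r1 span. Replicate 3 had another of 3 units at 40466386 to 40466446. They were not counted for Il1rl1.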
